A study of Mus musculus with 6 samples.

Results

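The transcripts described here are those of 9 genes that macrophages use as effectors and receptors, Lyz2, Cybb, Ncf1, Cx3cr1, Stab1, Fcgr2b, Gpr183, Bcl2a1d and Cytip. They were taken by name from the 38483 genes of the deposited tables, and all 9 lie on the minus strand. They were chosen by their measured counts, as myeloid genes that stood higher in the Nipbl+/- cultures. The difference between genotypes is therefore given below as a description without a test. RNA-seq was performed on 3 WT and 3 Nipbl+/- cultures of mouse embryonic fibroblasts (MEFs) of the CD1 strain at passage 3, grown in serum-containing medium without any further treatment. Nipbl+/- embryos carry a heterozygous knockout of Nipbl, which encodes a loader of the cohesin ring, and WT embryos were their littermates. The embryos were at midgestation, were taken from a single pregnant mouse in the study's description, and were minced after the limbs, brain and internal organs had been removed. No step that sorted cells is described, and the labels do not say how many embryos went into each culture.

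Macrophages are phagocytes that settle in embryonic tissues before birth and persist among connective tissue cells. They kill and digest what they engulf with lysozyme and with the NADPH oxidase, an enzyme assembled at the phagosome membrane that makes superoxide. Their surface carries receptors for chemokines, oxysterols, antibody complexes and modified proteins, and their transcription depends on PU.1, an ETS family factor that binds sites built around GAGGAA.

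The stretch before the start site was taken from RefSeq (GRCm38.p6, the assembly that mm10 names) for all 9 genes and searched on both strands for GAGGAA and for AGGAAG, which overlap each other by 5 letters. At least 1 of these was found within 250 bases before the start site in 4 of the 9 genes (44.4%), namely Lyz2, Stab1, Bcl2a1d and Cytip, against 39.0% of 27025 genes. The share in the 9 genes was thus near that of all genes. The RefSeq start of Cybb lies 18447 bases, that of Cytip 35410 bases and that of Fcgr2b 476 bases from the start in the deposited tables, so their windows do not describe the deposited start. The sequences below are shown for Lyz2, the most abundant of the 9 transcripts, and for Bcl2a1d with 2 paralogs, because similarity within the Bcl2a1 family bears on how its reads were counted. Capitals mark the matches on either strand.
Lyz2, chr10:117282360-117282429, minus strand: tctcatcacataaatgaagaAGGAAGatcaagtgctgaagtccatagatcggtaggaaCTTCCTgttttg
Bcl2a1d, chr9:88731905-88731974, minus strand: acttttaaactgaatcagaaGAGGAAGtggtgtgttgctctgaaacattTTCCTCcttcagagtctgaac
Bcl2a1a, chr9:88956790-88956859, plus strand: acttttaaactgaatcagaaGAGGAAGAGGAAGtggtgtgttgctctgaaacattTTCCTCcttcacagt
Bcl2a1b, chr9:89199099-89199168, plus strand: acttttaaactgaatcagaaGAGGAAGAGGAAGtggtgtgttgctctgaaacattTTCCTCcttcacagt
The windows of Bcl2a1a and Bcl2a1b are the same letters. In the 250 bases before the start, GAGGAA was found 2 times in Bcl2a1d and 3 times in each of these paralogs.

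Similarity extends to the transcripts. Of 814 stretches of 50 bases in the Bcl2a1d transcript, 79.5% also occur in a transcript of another gene, 64.0% in Bcl2a1a and 54.3% in Bcl2a1b. Both paralogs are plus-strand genes listed at 0 in all cultures, so the count of Bcl2a1d cannot be told apart from reads of its paralogs. For Lyz2, 15.4% of the stretches are shared with Lyz1, its neighbour on chromosome 10. For Fcgr2b, 6.95% are shared with other genes, Fcgr3 among them. Exons of Ncf1 overlap those of Gtf2ird2 on the plus strand by 408 of 3663 bases, those of Stab1 overlap Nt5dc2 by 112 of 10288, those of Fcgr2b overlap Gm38204 by 155 of 5790, and those of Cx3cr1 overlap Gm33858 by 78 of 4505. Cybb and Gpr183 share no such stretch with any other gene, and Cytip shares 0.236% of its stretches.

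Library totals ranged from 20307454 to 25990783 counts. The 19214 plus-strand genes had no count in any culture, so the values cover genes of the minus strand only. Levels are given as CPM, the usual scaling of counts to library size, after TMM normalisation. Adjusted p-values are those of edgeR's quasi-likelihood test unless another tool is named. The targeted gene, Nipbl, was lower in the Nipbl+/- cultures (100.8 ± 0.505 CPM, SD, n = 3) than in WT (136 ± 8.26 CPM, n = 3), with a log2 fold change of -0.43 and an edgeR adjusted p of 0.0213. Xist counts exceeded Ddx3y counts in WT replicate 3 and in Nipbl+/- replicates 1 and 2, and the reverse held in the other cultures, so the genotypes were not balanced for this difference. Of 12 fibroblast markers, 10 are on the plus strand. Of the 2 that could be read, Fn1 lay between 14360 and 18188 CPM. Fap stood at 31.0, 37.8 and 19.0 CPM in WT replicates 1, 2 and 3 and at 46.4, 50.3 and 39.7 CPM in Nipbl+/- replicates 1, 2 and 3, without overlap. Its log2 fold change was 0.64 ± 0.21 (SE, unadjusted p 0.0171, adjusted p 0.181 by edgeR), and its part in the results below was not tested.

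The 9 genes together made up 1534, 1072 and 1126 counts in WT replicates 1, 2 and 3 and 2337, 4473 and 1754 counts in Nipbl+/- replicates 1, 2 and 3, at most 0.0172% of a library. Summed over the 9 genes, WT cultures held 56.5 ± 11.6 CPM and Nipbl+/- cultures 120.0 ± 45.4 CPM (SD, n = 3 per genotype), which is 2.12-fold higher in the latter. Each of the 9 genes was higher in each Nipbl+/- culture than in each WT culture, which was also the case for 12% of the 9061 genes tested. With edgeR and an adjusted threshold of 0.05, 2 of the 9, Bcl2a1d and Cytip, were called higher, against 1.04% of all tested genes. The number called was 9 with edgeR's exact test (2.42% of all tested genes), 8 with DESeq2 (2.62%), 7 without a filter (1.28%), 3 with library size alone (1.57%) and 0 with a block for the replicate number (0.375%). It was 0 without WT replicate 1, WT replicate 3, Nipbl+/- replicate 1 or Nipbl+/- replicate 2, 1 without WT replicate 2 and 3 without Nipbl+/- replicate 3. These counts follow from the choice of genes and nothing is read from them. All 9 genes passed the filter on low counts, Gpr183 (10, 4 and 6 counts in WT) only with the Nipbl+/- cultures. For Gpr183, Cytip and Bcl2a1d, with 4 to 23 counts in a WT culture, the Nipbl+/- cultures carried most of the reads. In bulk RNA, a difference in the number of macrophages and a difference in the RNA of each cannot be told apart.

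**Figure D1:**
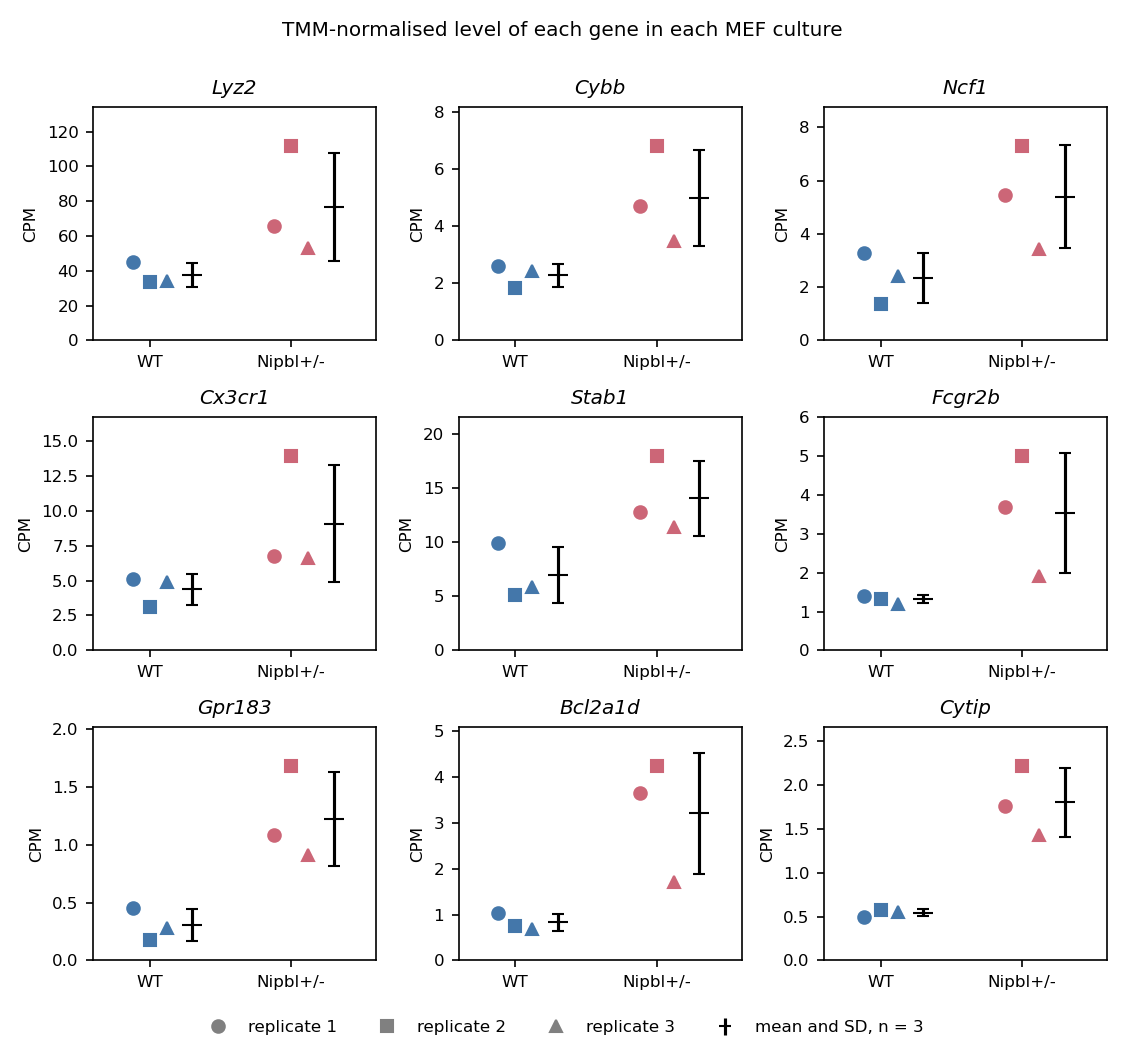
Level of each of the 9 genes (CPM, counts scaled to library size after TMM normalisation, vertical axes from 0) in 3 WT and 3 Nipbl+/- MEF cultures. Points are cultures, with a symbol for each replicate number, and bars are the mean and SD of 3. In each panel all 3 Nipbl+/- points lie above the WT points, and Nipbl+/- replicate 2 is the highest.

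Lyz2 (ENSMUSG00000069516), on mm10 chromosome 10 from 117277334 to 117282274, encodes lysozyme 2, which cleaves the bacterial cell wall. Its level was 45.3, 33.4 and 33.9 CPM in WT replicates 1, 2 and 3, and 65.5, 112 and 52.9 CPM in Nipbl+/- replicates 1, 2 and 3. The lowest Nipbl+/- culture was 1.17-fold above the highest WT culture. On the log2 scale the difference was 1.04 (standard error 0.26), and it was 0.66 when Nipbl+/- replicate 2 was left out.

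Cybb (ENSMUSG00000015340), on chromosome X from 9435252 to 9487771, encodes the catalytic, membrane-bound subunit of the phagocyte NADPH oxidase. It stood at 2.59, 1.82 and 2.41 CPM in the WT cultures and at 4.69, 6.80 and 3.49 CPM in the Nipbl+/- cultures, again in the order of the replicate numbers. Ncf1 (ENSMUSG00000015950), on chromosome 5 from 134220053 to 134229625, encodes the cytosolic organizer subunit of the same enzyme. Its values were 3.27, 1.38 and 2.41 CPM in WT and 5.46, 7.30 and 3.44 CPM in Nipbl+/-. Both subunits were in the same order of cultures within each genotype. Their CPM values were similar, but CPM is not scaled to transcript length. In mean RPKM, which is, Ncf1 stood above Cybb, at 0.611 against 0.373 in WT and 1.44 against 0.841 in Nipbl+/-, with overlapping ranges. For Ncf1 the groups nearly touched, with the lowest Nipbl+/- culture only 1.05-fold above the highest WT culture. The log2 fold changes were 1.14 (standard error 0.27) for Cybb and 1.21 (standard error 0.35) for Ncf1.

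Among the receptors, Cx3cr1 (ENSMUSG00000052336, chromosome 9 from 119901616 to 120068283) binds the chemokine fractalkine and marks tissue macrophages and microglia. It had 5.13, 3.12 and 4.92 CPM in WT and 6.72, 13.9 and 6.59 CPM in Nipbl+/-. Nipbl+/- replicate 2 stood far above the other cultures, and the log2 fold change of 1.06 ± 0.32 (SE) became 0.60 without it. Stab1 (ENSMUSG00000042286, chromosome 14 from 31139013 to 31168641) encodes stabilin-1, a scavenger receptor of macrophages and sinusoidal endothelium. Its level was 9.94, 5.12 and 5.89 CPM in WT and 12.8, 18.0 and 11.4 CPM in Nipbl+/-, with a log2 fold change of 1.01 ± 0.26 (SE).

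Fcgr2b (ENSMUSG00000026656, chromosome 1 from 170960558 to 170976547) encodes the inhibitory receptor for IgG complexes. The WT cultures were close together at 1.41, 1.34 and 1.21 CPM, while the Nipbl+/- cultures spread over 3.70, 5.01 and 1.91 CPM. Its log2 fold change was 1.43 (standard error 0.34). Gpr183 (ENSMUSG00000051212, chromosome 14 from 121952331 to 121965193) encodes the receptor for 7α,25-dihydroxycholesterol, an oxysterol that guides immune cells. It was read from 10, 4 and 6 counts in WT and 24, 44 and 19 counts in Nipbl+/-. An exact Poisson interval (95%, counting error only) for the WT culture with 4 counts runs from 1.09 to 10.2, and for the Nipbl+/- culture with 19 counts from 11.4 to 29.7. The interval of the WT culture with 10 counts, from 4.80 to 18.4, overlapped the latter. The log2 fold change of 2.01 ± 0.41 (SE) was the highest of the 9 and also the least precise.

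Bcl2a1d (ENSMUSG00000096581, chromosome 9 from 88723288 to 88731850) encodes an A1 protein, a BCL2 relative that protects leukocytes from apoptosis. Its values were 1.04, 0.757 and 0.696 CPM in WT and 3.65, 4.24 and 1.72 CPM in Nipbl+/-. Within Nipbl+/-, replicate 3 was under the other cultures by more than the whole range of WT, and the log2 fold change was 1.95 (standard error 0.37). Cytip (ENSMUSG00000026832, chromosome 2 from 58129137 to 58195532) encodes a scaffold that binds cytohesin-1 and moderates leukocyte adhesion. It showed the widest gap between genotypes, with 0.499, 0.579 and 0.557 CPM in WT and 1.76, 2.22 and 1.43 CPM in Nipbl+/-. The lowest Nipbl+/- culture was 2.48-fold above the highest WT culture, and the log2 fold change was 1.72 (standard error 0.27).

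The order of levels between genes was read from RPKM, in which the authors scaled reads to transcript length and library size. In WT, Lyz2 was far above the rest at 28.2 ± 4.67 RPKM (SD, n = 3). Cx3cr1 followed at 1.12 ± 0.290, Bcl2a1d at 0.993 ± 0.205, Stab1 at 0.644 ± 0.230, Ncf1 at 0.611 ± 0.242, Cybb at 0.373 ± 0.0674 and Fcgr2b at 0.325 ± 0.0179 RPKM. Neighbours from Cx3cr1 down to Fcgr2b overlapped in their ranges over cultures. Gpr183 at 0.098 ± 0.0440 and Cytip at 0.0769 ± 0.00661 RPKM lay under Fcgr2b without overlap, and overlapped each other. In Nipbl+/-, Lyz2 again led with 59.3 ± 23.6 RPKM, and Bcl2a1d, at 3.93 ± 1.59 RPKM, stood above Cx3cr1 at 2.37 ± 1.08, although their ranges overlapped. The length implied by the RPKM of Bcl2a1d is 0.823 kb, the shortest of the 9, and that of Stab1 is 10.6 kb, the longest, and Stab1 ranked 2 in CPM but 4 in WT and 5 in Nipbl+/- in RPKM.

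The cultures kept nearly the same order across the 9 genes. Nipbl+/- replicate 2 was the highest and replicate 3 the lowest of their genotype for 9 of 9 genes, while 32.6% of all tested genes were highest in Nipbl+/- replicate 2 and 34.0% lowest in replicate 3. Among the WT cultures, replicate 1 was the highest for 8 of the 9 genes, against 29.5% of all tested genes. Cytip was the exception, with its highest WT level in replicate 2. WT replicate 2 was the lowest for 6 genes and replicate 3 for 2. This order is not independent of the choice of genes, because the difference that chose them leaned on Nipbl+/- replicate 2. Without that culture the log2 fold changes of the 9 lay between 0.60 and 1.70, against 1.01 to 2.01 with it. The genes also share the same 6 libraries, and with 3 cultures of each genotype a correlation within a genotype cannot be tested.

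**Figure D2:**
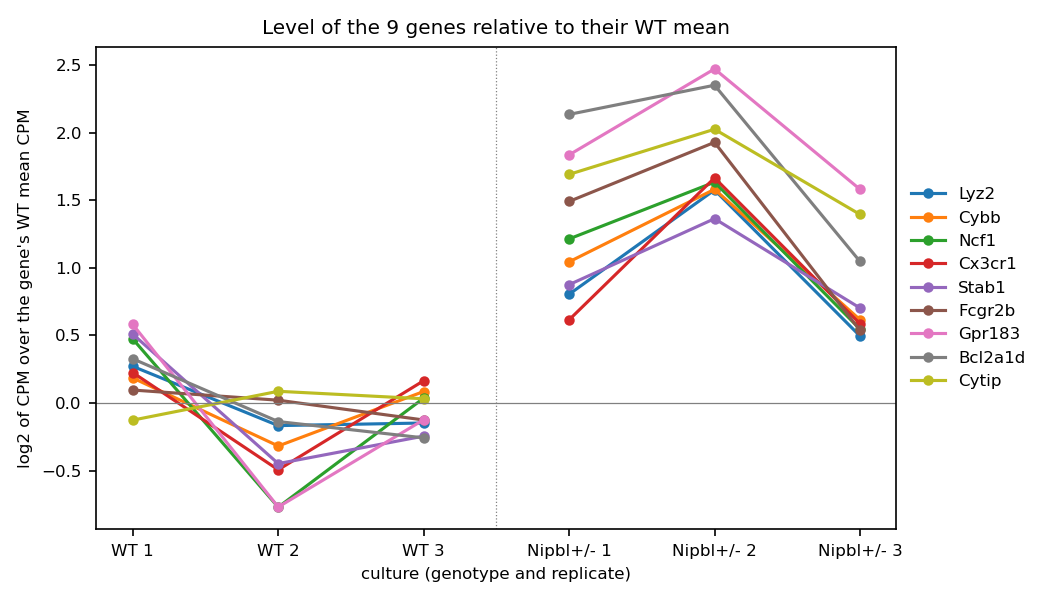
Level of the 9 genes in each culture as log2 of the CPM over the mean WT CPM of that gene (vertical axis) for the 6 cultures (horizontal axis). Lines join the points of a gene within a genotype only to guide the eye. All 9 genes peak in Nipbl+/- replicate 2 and are lowest, among Nipbl+/- cultures, in replicate 3.

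Because the Xist and Ddx3y classes were split unevenly over the genotypes, the ratio of genotypes was also taken within each class. In the class with high Xist, which holds 1 WT and 2 Nipbl+/- cultures, the ratio of mean CPM lay between 2.10 (Cx3cr1) and 5.67 (Bcl2a1d). In the class with high Ddx3y, which holds 2 WT and 1 Nipbl+/- culture, it lay between 1.34 (Lyz2) and 2.87 (Gpr183). Ratios above 1 in both classes were fixed by the choice of genes whose genotypes do not overlap, and only their sizes are described here. For Lyz2 the ratio was 2.62 in the former and 1.34 in the latter, and for Cytip 3.57 and 2.66. Nipbl+/- replicate 3 is the only Nipbl+/- culture of its class, so class and culture cannot be told apart there.

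The relative amounts of the 9 transcripts were also compared between cultures. Lyz2 made up 65.1%, 70.1% and 64.8% of the summed counts of the 9 genes in WT and 62.2%, 65.4% and 63.2% in Nipbl+/-. Its Wilson 95% intervals, which cover counting error only, ran from 67.2% to 72.7% in WT replicate 2, above those of all 3 Nipbl+/- cultures, which together spanned 60.2% to 66.8%. The intervals of WT replicates 1 and 3 overlapped those of the Nipbl+/- cultures. The summed counts ran from 1072 to 4473. Lyz2 is itself most of this sum, so its share says little about the other genes and is no separate result. Bcl2a1d took 1.50%, 1.59% and 1.33% of the sum in WT and 3.47%, 2.48% and 2.05% in Nipbl+/-. Gpr183 took 0.652%, 0.373% and 0.533% in WT and 1.03%, 0.984% and 1.08% in Nipbl+/-. Cytip took 0.717%, 1.21% and 1.07% in WT and 1.67%, 1.30% and 1.71% in Nipbl+/-. These 3 genes have the highest log2 fold changes of the 9, so their larger shares in Nipbl+/- cultures follow from the counts that chose the genes and are no separate result. Counting error was wide for them. For Gpr183 and Cytip, every Nipbl+/- interval overlapped every WT interval. For Bcl2a1d, the intervals of Nipbl+/- replicates 2 and 3 overlapped those of all WT cultures, and that of replicate 1, from 2.80% to 4.29%, overlapped none.

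**Figure D3:**
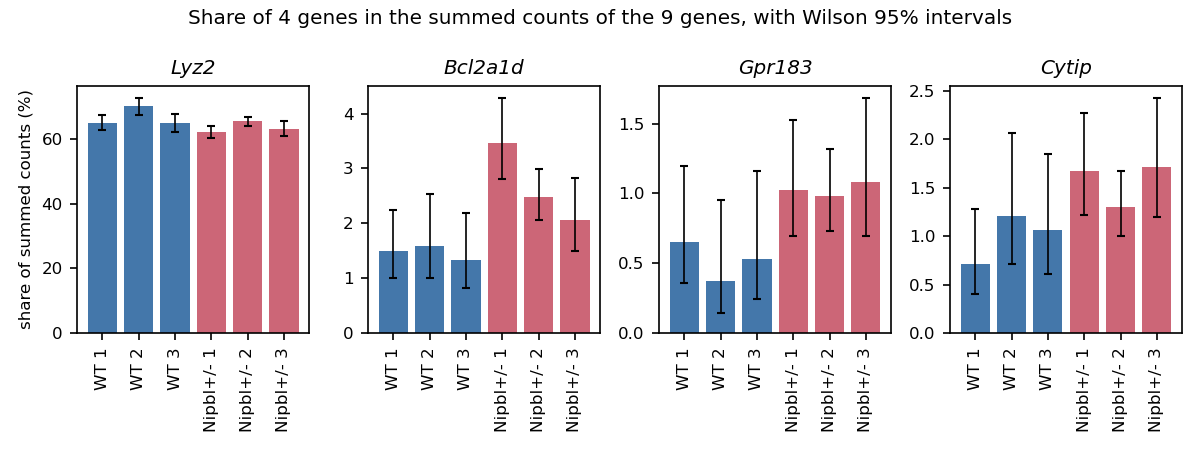
Share of Lyz2, Bcl2a1d, Gpr183 and Cytip in the summed counts of the 9 genes (percent, vertical axes from 0) in each of the 6 cultures. Error bars are Wilson 95% intervals and cover counting error only. Lyz2 stays between 62.2% and 70.1%, and the bars of the other 3 genes are taller in Nipbl+/- cultures.

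The genes that work with these 9 were read from lists of partners and of macrophage genes. Of 105 list genes found in the tables besides the 9, 56 are plus-strand genes without a count, among them Csf1r, Itgam, Tyrobp, Ctss, Mrc1 and Ncf4. Another 43 had enough counts for the test, and their median log2 fold change was 0.11, against -0.01 over all tested genes. With edgeR's quasi-likelihood test, 0 of the 43 were higher after adjustment, 17 were higher before adjustment (p-value under 0.05, as for 8.98% of all tested genes) and 4 were lower (7.95%). All Nipbl+/- cultures lay above all WT cultures for 7 of the 43 (12% of all tested genes) and below them for 5 (10.8%). After adjustment, 5 were higher with edgeR's exact test (2.42% of all tested genes) and 5 with DESeq2 (2.62%). Msr1, Dock2, Ptprc and C3ar1 were called by both of these tools, Btk by the former and Lyz1 by the latter. At the adjusted threshold, 2 of the 43 were lower, Csf1 and Bid, against 0.916% of all tested genes. The 43 genes come from the same 6 libraries as the 9 and are not independent of them. Their lists were also written with earlier results of these data known. Some passed the filter on low counts only with the Nipbl+/- cultures, such as Btk (6, 5 and 10 counts in WT, 13, 34 and 19 in Nipbl+/-). The numbers of list genes called are therefore a description, and nothing is read from them.

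In the NADPH oxidase, 3 partners were tested and none passed the threshold in any direction with edgeR's quasi-likelihood test, edgeR's exact test or DESeq2. Cyba, the membrane partner that stabilizes the Cybb protein, measured 92.7 ± 3.91 CPM in WT against 95.4 ± 1.48 CPM in Nipbl+/- (SD, n = 3), or 0.04 ± 0.05 (SE) as a log2 fold change. Cyba is transcribed in many cell types, as is the GTPase Rac1, which had a log2 fold change of 0.05 ± 0.04 (SE). Rac2, the GTPase of blood cells, measured 2.54 ± 0.513 CPM in WT against 3.78 ± 1.02 CPM in Nipbl+/-, with a log2 fold change of 0.57 ± 0.25 (SE, adjusted p 0.288 by edgeR). It was 1 of the 3 with an unadjusted p-value under 0.05.

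All 5 tested genes of Fc receptor signalling had log2 fold changes above 0, but none passed the adjusted threshold with edgeR. All 5 had an unadjusted p-value under 0.05 by edgeR, as did 8.98% of all tested genes in this direction. The list was written with earlier results known, so nothing is read from these numbers. They were the activating receptors Fcgr1 (1.07) and Fcgr3 (0.94), their signalling chain Fcer1g (0.92), the kinase Btk (1.55) and the phosphatase Ptpn6 (0.85). Btk was called by edgeR's exact test. Btk (6, 5 and 10 counts in WT) and Fcgr1 (7, 12 and 15) passed the filter on low counts only with the Nipbl+/- cultures. All 5 were highest in Nipbl+/- replicate 2. For Fcer1g, the counts were 48, 49 and 52 in WT and 89, 170 and 46 in Nipbl+/-, and in CPM Nipbl+/- replicate 3 (2.20) lay within the WT range (2.18 to 2.41).

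Lyz1, the lysozyme of Paneth cells whose sequence partly matches Lyz2, had 173, 115 and 100 counts in WT and 224, 479 and 151 in Nipbl+/- (log2 fold change 1.02, SE 0.34, by edgeR an adjusted p of 0.177). The macrophage scavenger receptor Msr1 was close to the threshold, at 7.72 ± 1.56 CPM in WT against 21.4 ± 9.36 CPM in Nipbl+/- (SD, n = 3 each), with a log2 fold change of 1.48 ± 0.30 (SE, adjusted p 0.0511 by edgeR). Over the alternatives its adjusted p-value ran from 0.000208 to 0.159. Cd36, another scavenger receptor, had a log2 fold change of 1.22 ± 0.39 (SE). Axl, a receptor tyrosine kinase that fibroblasts also carry, was abundant at 918 ± 62.1 CPM in WT against 939 ± 60.2 CPM in Nipbl+/-, with a log2 fold change of 0.03 ± 0.07 (SE).

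For Gpr183, enzymes that make its ligand were read as well, while Hsd3b7, which breaks the ligand down, is a plus-strand gene without a count. Ch25h, the cholesterol 25-hydroxylase, had a log2 fold change of -0.48 ± 0.31 (SE) and Cyp7b1, the oxysterol 7α-hydroxylase, one of -0.45 (standard error 0.15). Neither passed the adjusted threshold (edgeR adjusted p of 0.489 and 0.175). C3ar1, the receptor for the complement fragment C3a, measured 3.83 ± 0.504 CPM in WT against 6.32 ± 0.876 CPM in Nipbl+/-, with a log2 fold change of 0.72 ± 0.17 (SE, adjusted p 0.0684 by edgeR). The ligand gene of Cx3cr1, Cx3cl1, is on the plus strand and was not readable.

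Of the BCL2 family, 5 genes were tested beside Bcl2a1d. Bid, a pro-apoptotic member, was lower in Nipbl+/- (52.4 ± 2.84 CPM, SD, n = 3) than in WT (66.9 ± 5.33 CPM, n = 3), by -0.35 on the log2 scale (standard error 0.07, edgeR adjusted p of 0.0469). Its adjusted p-value was not under 0.05 with library size alone, with the replicate number as a block or with any of the 6 cultures left out, and reached 0.127 at the most, while the log2 fold change stayed between -0.40 and -0.29. The log2 fold changes of Bcl2, Bcl2l1, Bax and Bak1 lay between -0.08 and 0.25, and none of the 4 passed the threshold. The cytohesins Cyth1 and Cyth2, relatives that Cytip can bind, had log2 fold changes of 0.07 and 0.11.

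**Figure D4:**
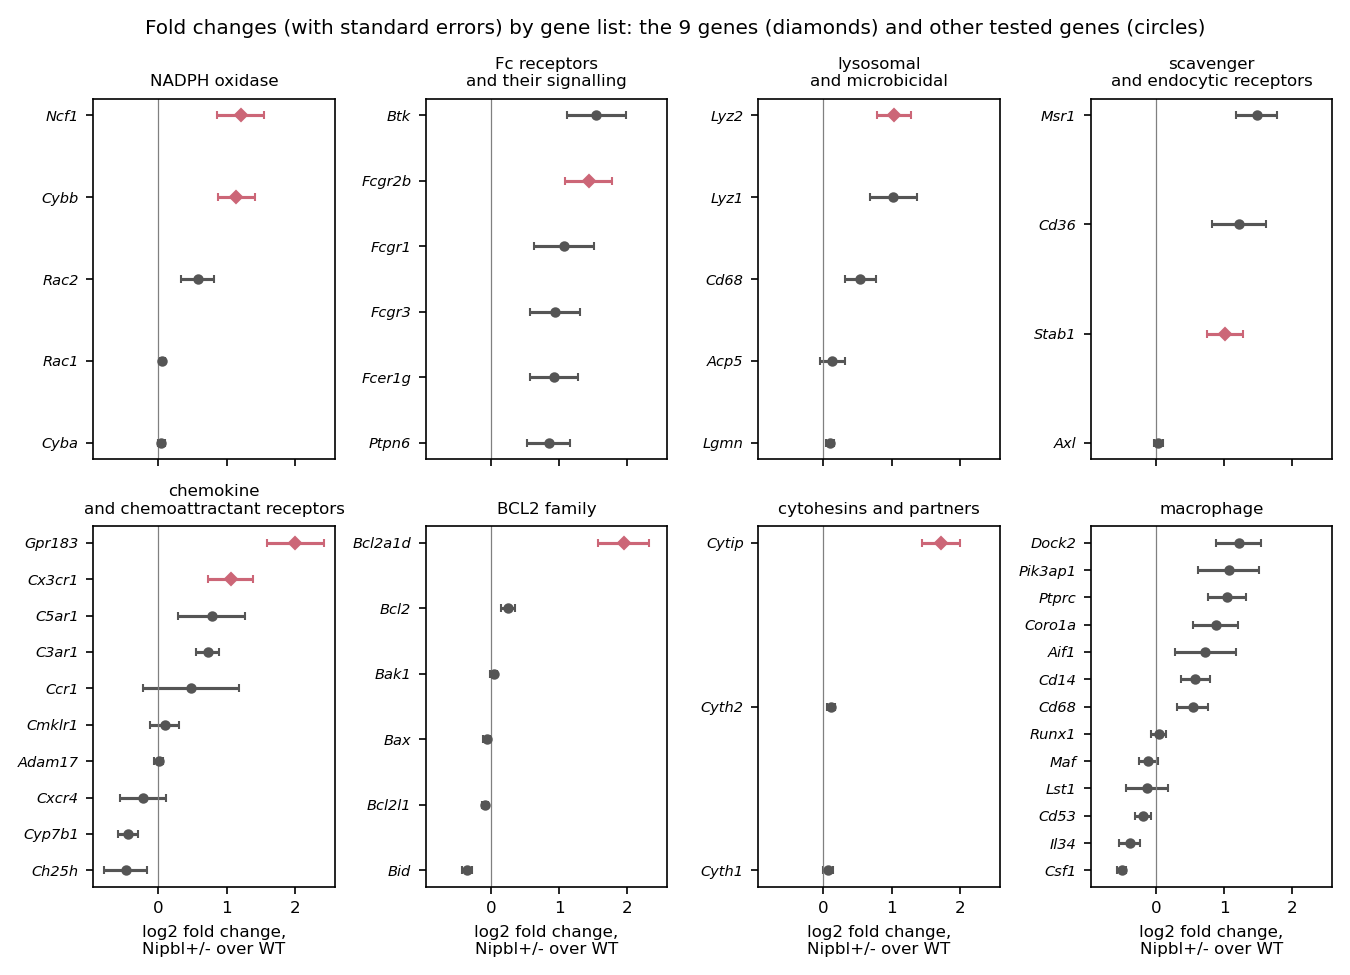
Log2 fold change of Nipbl+/- over WT with its standard error (horizontal axes) for the 9 genes (diamonds) and other tested genes of 8 gene lists (circles), 1 list per panel. The diamonds lie between 1.01 and 2.01, and the broadly transcribed partners Cyba, Rac1, Axl, Bax, Cyth1 and Cyth2 lie near 0.

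Of the macrophage list, 14 genes were tested. Ptprc, the leukocyte phosphatase CD45, had 84, 68 and 104 counts in WT and 141, 297 and 130 in Nipbl+/- (log2 fold change 1.04, SE 0.28, by edgeR an adjusted p of 0.100). Dock2, Coro1a and Pik3ap1, which act in leukocyte movement and signalling, had log2 fold changes of 1.22, 0.88 and 1.07. Cd68 and Cd14 had 0.54 and 0.58, while Cd53 and Lst1 had log2 fold changes of -0.19 and -0.13. Of the 14 log2 fold changes, 8 were above 0. Csf1, the growth factor that macrophages need and that fibroblasts secrete, was at 336 ± 23.4 CPM in Nipbl+/- and 477 ± 23.5 CPM in WT (SD, n = 3), a difference of -0.50 on the log2 scale (standard error 0.06, edgeR adjusted p of 0.0188). All 3 Nipbl+/- cultures were under all 3 WT cultures. Its adjusted p-value was above 0.05 without WT replicate 1, Nipbl+/- replicate 1 or Nipbl+/- replicate 2, up to 0.0842, and its log2 fold change stayed between -0.56 and -0.46. Il34, the other ligand of the same receptor, had a log2 fold change of -0.39 ± 0.15 (SE, adjusted p 0.253 by edgeR).

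Markers of other cells of the embryo were read in the same way, and their part in the results was not tested. Mast cell genes summed to 0.928 to 1.45 CPM in WT and 1.76 to 3.68 CPM in Nipbl+/-. The higher sums in Nipbl+/- came from Ms4a2 alone, with a mean of 0.483 CPM in WT and 1.95 CPM in Nipbl+/-. The highest sum, in Nipbl+/- replicate 3, held 2.96 CPM of Ms4a2. Mean CPM of Cma1, Hdc and Mcpt4 in Nipbl+/- was 0.883, 0.549 and 0.814 times that in WT, from at most 12 counts in a culture. Cpa3 and Fcer1a had no count. The tested gene of this list was Ms4a2, the beta chain of the IgE receptor (log2 fold change 1.99, edgeR adjusted p of 0.0559). Neutrophil genes were at 0 to 0.186 CPM, with S100a9 at 0 in all cultures. Lymphoid genes summed to 1.02 to 1.44 CPM in WT and 1.10 to 2.06 CPM in Nipbl+/-, with Cd3e and Cd79b at 0. Erythroid genes summed to at most 0.430 CPM. Endothelial genes, which bear on Stab1, summed to 69.3 to 104 CPM in WT and 71.0 to 93.3 CPM in Nipbl+/-, highest in WT replicate 2. Most of this sum was Flt1, at 52.9 to 90.7 CPM over the cultures, while Pecam1 had at most 8 counts in a culture. The sum thus mainly follows a single gene. Muscle genes summed to 238 to 339 CPM in WT and 295 to 340 CPM in Nipbl+/-, nearly all of it Acta1 (237 to 339 CPM over the cultures). In WT and Nipbl+/-, epithelial genes summed to 0.742 to 1.78 and 2.29 to 3.01 CPM, and neural genes to 0.557 to 1.11 and 1.44 to 2.14 CPM. None of the 12 tested genes in these 9 lists, fibroblast genes included, passed the adjusted threshold with edgeR. By the same test, 4 were higher with an unadjusted p-value under 0.05, as were 8.98% of all tested genes. Among these 4, Ms4a2 (14, 12 and 6 counts in WT), Krt8 (8, 10 and 7) and Elavl4 (12, 15 and 4) passed the filter only with the Nipbl+/- cultures. Nothing is read from this number. Ms4a2 was called by edgeR's exact test and by DESeq2.

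Other genes whose levels followed those of the 9 were ranked by Pearson's r with the mean z score of the 9 genes over the 6 cultures, among 8335 genes with an average log2 CPM above 0. The nearest were Plek (0.99), Msr1 (0.99), Srp68 (0.99), C1qc (0.99), Gspt1 (0.99), Cdpf1 (0.98), C1qa (0.98) and Gm12852 (0.98). Plek, the leukocyte protein pleckstrin, averaged 5.71 CPM in WT against 11.2 CPM in Nipbl+/-, and C1qa and C1qc, subunits of complement C1q that macrophages secrete, had log2 fold changes of 1.09 and 1.13. Srp68 and Gspt1, which serve protein targeting and translation termination in all cells, followed the same order with log2 fold changes of only 0.03 and 0.08. With each gene centred within its genotype, the nearest were Gm11975, Cdkn2b, Rps26-ps1, Coro1a, Dusp15, Emc3, Fcgr3 and Cfp, with r between 0.988 and 0.996. In all, 1.28% of the ranked genes had an r over 0.9 over the 6 cultures and 2.09% after centring. These values describe 6 points and carry no test.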

How the data were processed

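Per the labels and the study's methods, ribo-depleted total RNA was prepared with a TruSeq RNA kit and the authors aligned reads to mm10 with TopHat2 2.0.10 and an Ensembl annotation. The authors deposited for each culture a raw read count per gene and the RPKM beside it. The counting tool and the read length are not given in the sources used here. The count tables were fitted in R 4.3.3 by edgeR 4.0.16 (quasi-likelihood test) after filterByExpr (minimum count 10) and TMM normalisation, without covariates, with Benjamini-Hochberg adjustment over 9061 genes and a threshold of 0.05. The standard error of a log2 fold change was taken as its size divided by the root of the F statistic. CPM values are TMM-normalised, and log2 CPM used a prior count of 2. RPKM was used only to order genes by level. The cultures are separate samples by the labels, and the paper calls them biological replicates. Xist was at 25, 1 and 7770 counts in WT replicates 1, 2 and 3 and at 7544, 7882 and 6 in Nipbl+/-. Ddx3y went the other way, so the cultures of a genotype did not all come from the same embryo. Nothing ties each culture to its own embryo, however. The p-values measure only the spread between these cultures, part of which may be technical.

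The members and lists were chosen with earlier results of these data known. Genes were named as members, list genes past the threshold or direct partners and markers, and the 8 nearest genes of each likeness ranking. Some list genes enter the counts but are not reported here by name. Of the myeloid lists, 2 written symbols matched no name in the tables. Shared stretches and exon overlap came from GENCODE M21, where Bcl2a1d carries another identifier than in the tables and was matched by symbol. Alternatives were DESeq2 1.42.0, edgeR's exact test, DESeq2's size factors, library size alone, no filter, a replicate block and each culture left out. The Xist or Ddx3y class was added after seeing the data. The steps were tested on simulated data.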

Additional observations from a re-analysis of the deposited data

How the results depend on the processing

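The log2 fold changes of the 9 genes were above 0 in all 117 refits (9 genes under 13 alternatives), between 0.60 and 2.41. None moved by more than the SD between cultures. Values above 0 followed from the choice of genes whose genotypes do not overlap. Leaving a culture out can hardly move a value beyond an SD that comes from the same cultures. Neither outcome is therefore read as support. Counts of calls moved more. Of all tested genes, 94 were higher and 83 lower. With library size alone, 142 were higher. Without a filter 173 were higher and 152 lower, with edgeR's exact test 219 and 213, with DESeq2 237 and 212, and with the replicate block 34 and 52. With each culture left out, between 1 and 130 were higher and between 2 and 138 lower. Of the 9 genes, 2 were called, against 7 without a filter, 9 with edgeR's exact test, 8 with DESeq2, 1 with the Xist or Ddx3y class as a covariate, 0 with the replicate block, and 0 to 3 with a culture left out. Among the 43 other list genes, 0 were higher, against 1 with library size alone, 3 without a filter, 5 with edgeR's exact test, 5 with DESeq2 and 0 to 1 with a culture left out. Of these, 2 were lower, against 1 with library size alone, 1 with the replicate block and 0 to 1 with a culture left out. The cause of these shifts was not tested. No pairing of cultures by replicate number was seen. Deviations from the genotype means correlated at -0.06, -0.04 and -0.14 between cultures of the same number over the tested genes. Between cultures of different numbers they correlated at -0.07 to 0.12. With so few cultures, these values cannot exclude a pairing that touches few genes. Depth limits Gpr183 most, with 4 to 10 counts in WT cultures.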
